A study of Mus musculus with 12 samples.

Results

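Hgf, Met and the FGF receptor genes Fgfr1, Fgfr2, Fgfr3 and Fgfr4 were followed across 4 cell populations sorted from mouse liver. The 6 genes were chosen by symbol, are all present among the 54227 symbols of the deposited table, and all passed the filter on low values that left 16128 genes for testing. The mice were C57Bl/6 animals with the Sox9EGFP transgene, a reporter that makes cells fluoresce with Sox9, a transcription factor of bile duct cells. Their livers were dissociated after a 16 h fast and cells were sorted by EGFP into a negative population (neg), a population below low (sub), a low population (low) and a high population (high). Each population had 3 libraries, each made from 12000 sorted cells. All 4 populations carried the transgene, so no group lacks it. Age and sex were not used here, and the labels do not say that the 3 libraries of a population came from separate animals. Each replicate carries a name that recurs in all 4 populations, and the labels do not say whether it marks an animal. The p-values therefore measure the spread between these libraries, which may be partly technical.

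HGF is a secreted growth factor, made in liver mainly by stellate and endothelial cells, and MET is its receptor tyrosine kinase on epithelial cells. MET signalling is known for hepatocyte growth and liver regeneration. FGFR1 to FGFR4 are the receptor tyrosine kinases for fibroblast growth factors and need heparan sulphate or a Klotho protein to bind their ligands. In hepatocytes FGFR4 with beta-Klotho receives the gut hormone FGF15 and restrains bile acid synthesis.

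The labelled populations were checked against markers. Sox9 was between 0 and 0.691 normalised counts in the 3 neg libraries and between 3707 and 17140 in the other 9 libraries. Summed over 12 biliary markers, the level was 1243 to 2346 in neg, 26640 to 37978 in sub, 76990 to 103314 in low, and for high 68701 to 76915. Summed over 12 endothelial markers it ran the other way, from 115463 to 151561 in neg and 35726 to 51336 in sub to 750 to 2255 in low and 688 to 937 in high. Depth ran from 8775387 to 15535588 reads per library, so that 1 read was worth 0.691 to 1.22 normalised counts. Values dropped out often: of the tested genes with at least 100 normalised counts in some library of a population, 38.8% (high) to 49.6% (sub) were at 0 in another library of it. A 0 in these libraries is therefore listed as such and does not show that a transcript was absent. In bulk libraries, fewer cells of a type and less RNA per cell cannot be told apart.

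The start regions of the genes with contrasting patterns are shown first. RefSeq windows (build GRCm38.p6, 300 bases from 250 before to 50 after a transcript start) were found for 5 of the 6 genes, Fgfr1 being the exception. They were searched on both strands for 7 short motifs: AP-1 (TGANTCA), TEAD (CATTCC), SOX (AACAAT), ETS (CCGGAA), an HNF1 half-site (GTTAAT), C/EBP (TTGCNNAA) and the GC box (GGGCGG). The Hgf, first Met and Fgfr3 stretches below lie before the gene's start in the GENCODE M21 annotation, and the short Met stretch with the AP-1 match lies inside the annotated gene, near its start. All are on the plus strand, 5′ to 3′, with motif matches in capitals. They are shown because Hgf and Met ran in opposite directions across the populations and Fgfr3 ran with Met.
Hgf, chr5:16553245-16553494: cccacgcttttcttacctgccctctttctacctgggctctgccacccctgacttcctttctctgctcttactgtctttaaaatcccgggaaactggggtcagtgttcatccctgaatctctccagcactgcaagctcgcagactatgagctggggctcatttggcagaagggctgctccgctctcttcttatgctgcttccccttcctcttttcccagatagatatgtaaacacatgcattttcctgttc
Met, chr6:17463707-17463799: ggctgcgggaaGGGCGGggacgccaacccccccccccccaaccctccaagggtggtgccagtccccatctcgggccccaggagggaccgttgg
Met, AP-1 match with 10 bases on each side, chr6:17463893-17463919: gttgcccggcTGAGTCAcgggccgggc
Fgfr3, chr5:33721474-33721673: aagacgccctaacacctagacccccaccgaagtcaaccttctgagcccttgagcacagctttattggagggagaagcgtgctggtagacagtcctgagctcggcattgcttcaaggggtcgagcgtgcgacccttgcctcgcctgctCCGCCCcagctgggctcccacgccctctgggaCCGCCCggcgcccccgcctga

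The whole Met window was 75.7% G and C and held 3 GC boxes and the AP-1 match, which begins at position -54 from the RefSeq start. The share of all 32841 windows with an AP-1 match was 7.81%, and with a GC box 35.67%. The Hgf window shown was 51.3% G and C and had no match to any of the 7 motifs, while a second Hgf window further downstream had an HNF1 half-site at position -94, a motif found in 7.1% of windows. The first Fgfr3 window was 69.7% G and C with 4 GC boxes, 2 of them in the bases shown, and its second window had 2 overlapping ones. The Fgfr4 window (65.3% G and C) held 4 GC boxes, an ETS match at position -178 and a TEAD match at position 2. The ETS motif was found in 14.9% of windows and the TEAD motif in 14.66%. The Fgfr2 window (43.7% G and C) held none of the 7. The median window was 52.7% G and C. A match is a run of letters, not a shown binding site.

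Hgf, the ligand (ENSMUSG00000028864.7, chr5:16553495-16620152, plus strand), was read in neg and sub and was at 0 in every low and high library. The 3 neg libraries had 540.3, 1782 and 545.7 normalised counts, a mean of 955.9 ± 715.3 (SD, n = 3). The 3 sub libraries had 342.7, 50.4 and 752.1 normalised counts, a mean of 381.7 ± 352.5 (SD, n = 3). The 6 low and high libraries were all at 0, below all 6 neg and sub libraries with no overlap. For all tested genes, the share without overlap in this direction was 5.99% in low against sub and 5.91% in high against sub. Of all tested genes, 47 (0.291%) were likewise at 0 in all 6 low and high libraries and above 3 reads in all 6 neg and sub libraries.

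Folds given as at least, here and below, cover counting error and not drop-out. Set against a floor of 3 reads per library, the mean Hgf level was at least 396.0-fold lower in low than in neg and at least 355.0-fold lower in high than in neg. Without neg replicate 2 these bounds were 225.0-fold and 201.7-fold. Both differences passed the test (log2 fold change -9.66 ± 2.299 (SE) in each, adjusted p 0.0182 for low and 0.0178 for high). Of all tested genes, 2.15% were called lower in low than in neg and 2.25% in high than in neg. Against sub, Hgf was at least 158.1-fold lower in low and at least 141.8-fold lower in high, or 81.4-fold and 73.0-fold without sub replicate 3, and neither difference passed the test (adjusted p 0.140 and 0.129). Between sub and neg the libraries overlapped, with a log2 fold change of -1.77 (95% interval -6.58 to 3.04, adjusted p 0.821). Both calls ended without neg replicate 2, the library with the highest Hgf (adjusted p 0.0536 for low and 0.0525 for high), and the call for high also ended without high replicate 1 (0.0581) or high replicate 2 (0.0550) and in edgeR on 10 libraries (0.147). Comparing only the 2 populations ended the call for low (0.0640).

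Markers of both cell types known to make HGF were lower in low and high, like Hgf. Of 12 endothelial markers, 12 were called lower in low and 11 in high than in neg, and of 12 stellate and mesenchymal markers 6 in each. No marker of either list was called in sub against neg. The endothelial sum was 3.16 times lower in sub than in neg, and the Hgf mean 2.504 times lower, a difference that was not called and ran from 1.42 times without neg replicate 2 to 4.86 times without sub replicate 3. The mean stellate and mesenchymal sum was 1.21 times as high in sub as in neg, and this difference was not tested. Over the libraries this sum of 12 markers was 19786 to 34195 in neg, 27127 to 36529 in sub, 635 to 2517 in low, and for high 490 to 1937, so neg and sub overlapped. Of the 12 stellate and mesenchymal markers, 2 (Lrat and Colec11) were at 0 in all low libraries and 6 (Lrat, Colec11, Pdgfrb, Hand2, Col3a1 and Acta2) in all high libraries, and none was at 0 throughout neg or sub. The part of these cells in the Hgf difference was not tested. Another annotated gene, Gm43489, overlaps Hgf exons on the same strand and shares 6.31% of the 31-base words of Hgf. It was at 0 in every library.

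Met, the HGF receptor (ENSMUSG00000009376.15, chr6:17463800-17573980, plus strand), ran the other way. Its 3 neg libraries had 0, 0 and 29.0 normalised counts, a mean of 9.66 ± 16.7 (SD, n = 3). The sub libraries had 515.1, 1899 and 409.0, a mean of 941.2 ± 831.6 (SD, n = 3). The low libraries had 2425, 2325 and 1682, a mean of 2144 ± 403.2 (SD, n = 3), and the high libraries 2674, 968.2 and 953.9, a mean of 1532 ± 988.9 (SD, n = 3). All 9 libraries of the 3 EGFP-positive populations were above all 3 neg libraries, as were the sub libraries for 4.69% of all tested genes, and those 3 populations overlapped with each other.

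The mean Met level was 97.4 times higher in sub, 222.0 times higher in low and 158.6 times higher in high than in neg. All 3 differences passed the test, with log2 fold changes of 7.89 ± 1.53 in sub (adjusted p 0.00871), 9.41 ± 1.53 in low (0.000749) and 8.77 ± 1.53 in high (0.00144; all ± SE). In sub 1.04% of all tested genes were called higher than in neg, in low 2.55% and in high 2.44%. The size rests on neg replicate 3, the neg library with Met reads. Without it Met was at 0 in the remaining neg libraries, the log2 fold changes were 9.53, 11.05 and 10.40, and the means were at least 327.8-fold, 747.0-fold and 533.6-fold higher. The sub mean was 47.8 times higher than neg without sub replicate 2, and the high mean 99.5 times higher without high replicate 1. The sub call ended without sub replicate 2, the highest sub library (adjusted p 0.0681), with only the 2 populations compared (0.629) and on 10 libraries (0.0593, or 0.0577 with TMM scaling). The low and high calls ended in the fits of only 2 populations (0.0773 and 0.0805) and held in every fit that left out 1 library. Among the positive populations, the log2 fold change was 1.52 for low against sub (95% interval -1.67 to 4.71, adjusted p 0.766) and -0.65 for high against low (-3.84 to 2.55, adjusted p 1), so no difference was detectable between these. The biliary marker sum was 18.9 times higher in sub, 52.4 times higher in low and 44.5 times higher in high than in neg, and its part in the Met difference was not tested. Of 11 biliary markers tested, 7 were called higher in sub, 9 in low and 9 in high than in neg.

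**Figure D1:**
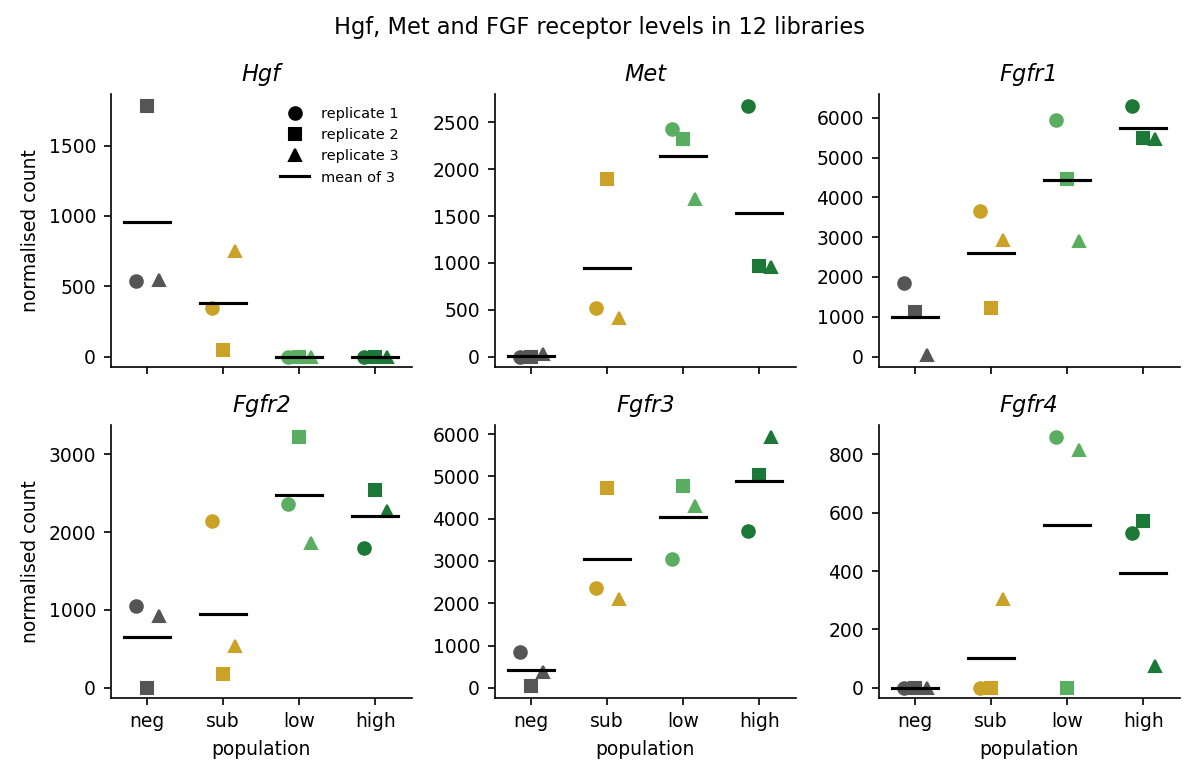
Normalised counts (vertical axes, a separate linear scale for each gene) of the 6 genes in the 12 libraries, by population; symbols mark the replicate number, horizontal lines the mean of 3 libraries. Hgf lies at 0 in all 6 low and high libraries, while Met lies at 0 to 29.0 in neg and at 409.0 to 2674 in the other 9 libraries.

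Fgfr1 (ENSMUSG00000031565.18, chr8:25513654-25575718, plus strand) encodes the FGF receptor that is widespread in mesenchymal cells. It was read in all 12 libraries. The neg libraries had 1845, 1114 and 29.9 normalised counts (mean 996.5 ± 913.4, SD, n = 3) and the sub libraries 3666, 1210 and 2932 (mean 2602 ± 1260). The low libraries had 5936, 4464 and 2902 (mean 4434 ± 1517) and the high libraries 6294, 5486 and 5461 (mean 5747 ± 474.0). All high libraries were above all sub and all neg libraries, whereas low overlapped both sub and high. For 10.2% of all tested genes the high libraries were above all neg libraries. Fgfr1 was 5.77 times higher in high than in neg, which passed the test (3.84 ± 1.004 (SE) on the log2 scale, adjusted p 0.0320), and 4.45 times higher in low, which missed the threshold (adjusted p 0.0585) but passed it in 5 alternatives, among them the fit with the replicate number as a block (0.0319). The high call is fragile: it ended in 8 of the 12 fits that left out 1 library (highest adjusted p 0.123, without high replicate 3) and in 6 other settings (up to 0.402, with only the 2 populations compared). Neg replicate 3, with 29.9, carries much of the size, and without it the log2 fold change was 1.999. The ratio of means was 10.05 for high and 7.75 for low without neg replicate 1, the highest neg library. The libraries of high and sub did not overlap, but that difference did not pass the test (log2 fold change 1.29, 95% interval -0.82 to 3.39, adjusted p 0.688), and 7.2% of all tested genes had no overlap in that direction.

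Fgfr2 (ENSMUSG00000030849.18, chr7:130162451-133123350, minus strand) encodes a receptor whose epithelial form answers FGFs made by mesenchyme. It had 1053, 0 and 917.5 normalised counts in neg, 2137, 176.3 and 532.6 in sub, 2356, 3218 and 1860 in low, and for high 1789, 2544 and 2273. All low and all high libraries were above all neg libraries, as for 8.38% and 10.2% of all tested genes. The means were 3.77 times higher in low and 3.35 times higher in high than in neg. Neither difference passed the test (log2 fold changes 4.61 and 4.46, adjusted p 0.190 and 0.200), and the fold changes rest on neg replicate 2, which was at 0. Without that library they were 1.30 and 1.15. The sub libraries spread over the range of both neg and low. The annotated span of Fgfr2 reaches over many other genes, and 2.69% of its 31-base words also occur in Ctbp2, so some of its reads may be shared.

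Fgfr3 (ENSMUSG00000054252.18, chr5:33721674-33737068, plus strand), a receptor known for restraining bone growth and present in epithelia, was called in the same 3 comparisons as Met. The neg libraries had 836.7, 46.5 and 379.6 normalised counts, a mean of 420.9 ± 396.7 (SD, n = 3). The sub libraries had 2352, 4727 and 2090 (mean 3056 ± 1453), the low libraries 3043, 4768 and 4300 (mean 4037 ± 892.3) and the high libraries 3699, 5029 and 5927 (mean 4885 ± 1121). All 9 EGFP-positive libraries were above all 3 neg libraries, and the 3 positive populations overlapped. Of all tested genes, 4.69% in sub, 8.38% in low and 10.2% in high lay above neg without overlap.

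The mean Fgfr3 level was 7.26 times higher in sub, 9.59 times higher in low and 11.6 times higher in high than in neg. The log2 fold changes were 3.53 ± 0.78 (SE, adjusted p 0.0268), 4.003 ± 0.78 (0.00462) and 4.28 ± 0.78 (0.00227). Without neg replicate 2, the lowest library, they were 2.34, 2.81 and 3.09 and remained past the threshold. Without neg replicate 1, the highest, the means were 14.3, 19.0 and 22.9 times higher than in neg. The sub call ended in 9 of the 12 fits that left out 1 library, up to an adjusted p of 0.145 without sub replicate 2, and in 5 other settings (up to 0.652, with only the 2 populations compared). The low and high calls held in all 12 and ended in a fit without the variance trend (adjusted p 0.103 and 0.0729), on 10 libraries (0.0711 and 0.0911) and with 2 populations compared (0.213 and 0.138). Among the positive populations the fold changes were small against their error, at most 0.75 on the log2 scale for high against sub (95% interval -0.89 to 2.39, adjusted p 0.756).

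Fgfr4 (ENSMUSG00000005320.9, chr13:55152640-55168759, plus strand), the main FGF receptor of hepatocytes, was the least read of the 4. It was at 0 in all 3 neg libraries, as were 20.2% of all tested genes. In sub it was at 0 in 2 libraries and at 304.2 in replicate 3, in low at 858.7, 0 and 814.5, and in high at 531.3, 572.0 and 76.0. High was the single population with reads in all 3 libraries. Against the floor of 3 reads, the mean was at least 136.5-fold higher in high than in neg and at least 193.7-fold higher in low. Low replicate 2 was itself at 0, as neg was, so the fold for low does not hold for each library. Neither difference from neg passed the test (log2 fold changes 8.16 and 6.47, adjusted p 0.145 and 0.295). All high libraries were above all neg libraries, as for 10.2% of all tested genes. The log2 fold change of high against low was 1.69, with an interval from -4.57 to 7.95, and the sign turned without low replicate 2 (-1.55). The hepatocyte marker sum was 395.0 to 1130 in neg, 6165 to 11471 in sub, 15007 to 23180 in low, and for high 18819 to 23408, and its part in the Fgfr4 levels was not tested. The members of that list did not all follow the sum. Of 11 tested, 3 were called higher in low and 5 in high than in neg, none lower, and of the 12 listed 2 (Apoa2 and Serpina1a) were at 0 in all low libraries and 4 (Apoa2, Serpina1a, Cps1 and Cyp2e1) in all high libraries.

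**Figure D2:**
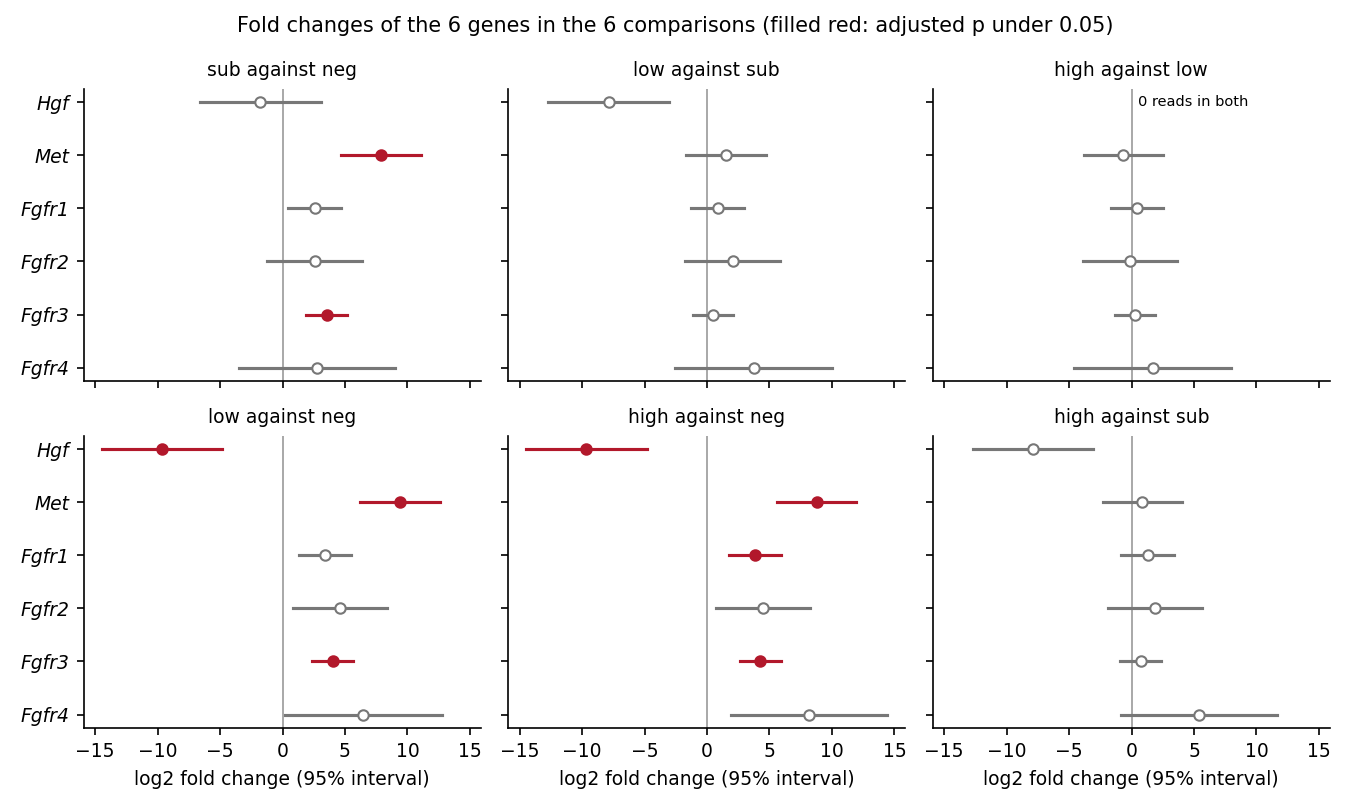
Log2 fold changes of the 6 genes in the 6 comparisons of populations, from limma on log2(normalised count + 1); bars are 95% intervals, filled red points have an adjusted p under 0.05 over all 16128 genes. The 9 filled points all lie in comparisons with neg, and the intervals for high against low all include 0.

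Over the 6 comparisons of populations, 9 of the 36 tests of these genes passed the threshold, and all 9 were against neg. In sub against neg, 2 genes were called higher (Met and Fgfr3) where 1.04% of all tested genes were. In low against neg, 2 were called higher (Met and Fgfr3) and 1 lower (Hgf). In high against neg, 3 were called higher (Met, Fgfr1 and Fgfr3) and 1 lower (Hgf), with 4.69% of all genes called in either direction in that comparison and also in low against neg. In the main limma fit none of the 6 was called in low against sub (0.744% of all genes called), in high against sub (0.986%) or in high against low. DESeq2 on 10 libraries called Hgf lower in low and high than in sub (adjusted p 2.69e-05 and 0.000354) and Fgfr4 higher (0.00543 and 0.0242), and limma without the variance trend called both Hgf differences (0.00613 and 0.00546). In high against low the main limma fit called 0 genes, while 684 (4.24%) had an unadjusted p under 0.05. On the same 12 libraries limma called 22 without the variance trend and 1 without the filter or with the replicate block. On 10 libraries limma called 60, edgeR 74 and DESeq2 678. By overlap alone, 4 genes were higher and 1 lower in low than in neg in every library, against 8.38% and 8.52% of all genes. In high against neg it was 5 higher and 1 lower, against 10.2% and 8.61%. A moderated F test over the 4 populations passed for Met (adjusted p 0.00152), Fgfr3 (0.00471) and Hgf (0.0153). It did not pass for Fgfr1 (0.0895, though it passed in 4 alternatives with 0.0152 to 0.0430, the last with the replicate block), Fgfr4 (0.352) or Fgfr2 (0.383), and it called 4.23% of all genes. The Fgfr3 result ended without the variance trend (0.169) and on 10 libraries in limma (0.142, or 0.138 with TMM scaling) and DESeq2 (0.0961). The comparisons with neg share its 3 libraries and are not independent of each other.

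Levels of the 4 receptors were compared with each other per kb of the longest coding transcript. Summed over the 4 genes, the level was 449.2 ± 312.6 normalised counts per kb for neg, 1487 ± 256.7 for sub, 2573 ± 268.3 for low and 2920 ± 194.8 for high (each SD, n = 3). The neg libraries, at most 807.4, lay below all sub libraries (at least 1289), and the sub libraries (at most 1777) below all low libraries (at least 2265). In high, Fgfr1 made up 39.3% ± 6.08 of the summed level per kb, Fgfr3 39.2% ± 6.88, Fgfr2 17.4% ± 2.02 and Fgfr4 4.12% ± 2.92. In low, Fgfr3 made up 37.3% ± 9.55, Fgfr1 33.7% ± 9.21, Fgfr2 22.1% ± 4.34 and Fgfr4 6.80% ± 5.92. Fgfr1 and Fgfr3 were thus level within their spread in both, and both exceeded Fgfr2, and Fgfr2 exceeded Fgfr4, in all 6 low and high libraries.

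The makeup was less even in the other populations. In sub, Fgfr3 took 49.7% ± 26.3 of the summed level per kb and Fgfr1 34.4% ± 15.0, and Fgfr3 ran from 31.2% to 79.9% between libraries. In neg the Fgfr1 share ran from 1.93% to 95.3%, so no order can be given there. Over all 12 libraries, Fgfr1 was the highest receptor per kb in 6, Fgfr3 in 5 and Fgfr2 in 1, and Fgfr4 was never the highest. These counts were the same with merged exon length in place of the coding transcript. The lowest receptor did depend on that choice. Fgfr4 was lowest in all 12 libraries with the first length and in 9 with the second, both counts including neg replicate 2, where Fgfr2 and Fgfr4 were tied at 0. With merged exon length Fgfr2 lay below Fgfr4 in low replicates 1 and 3 and in sub replicate 3.

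**Figure D3:**
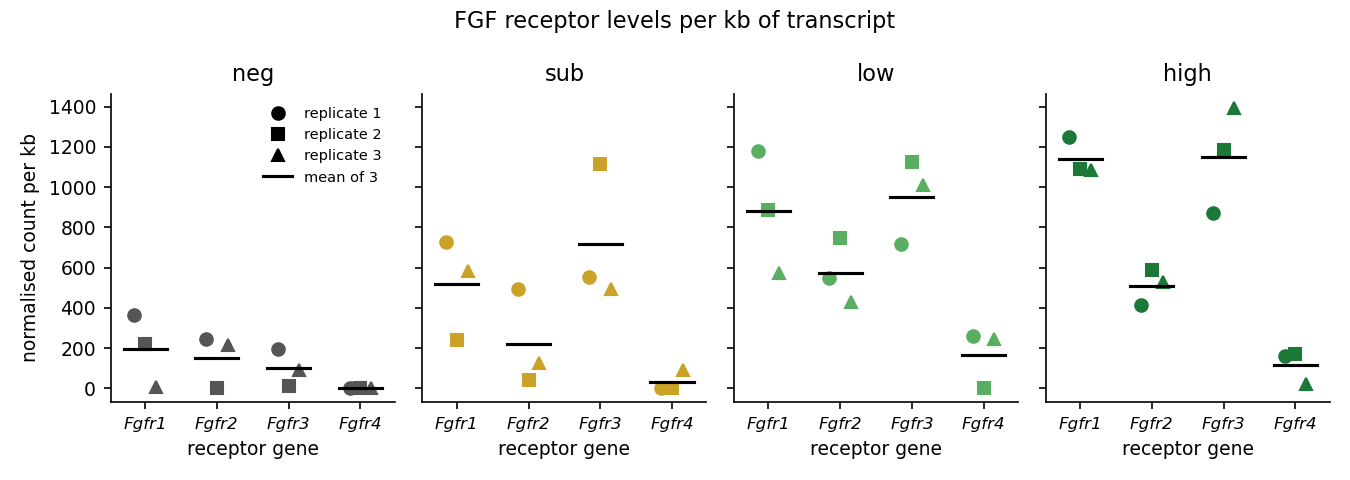
Levels of the 4 FGF receptor genes in normalised counts per kb of the longest coding transcript (vertical axis, shared), 1 panel per population; symbols mark the replicate, lines the mean of 3 libraries. In low and high, Fgfr1 and Fgfr3 lie above Fgfr2 and Fgfr2 above Fgfr4 in each of the 6 libraries.

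**Figure D4:**
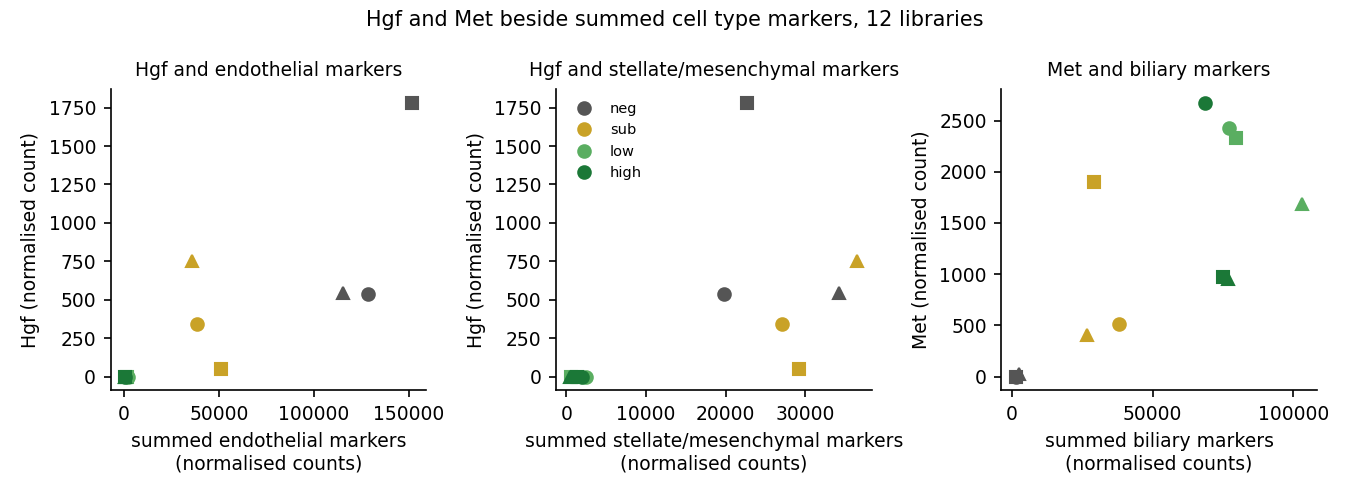
Hgf (left and middle panels) and Met (right panel) in normalised counts, against summed endothelial, stellate and biliary markers, also in normalised counts, for 12 libraries; color marks the population and symbol the replicate. The 6 low and high libraries lie at 0 for Hgf and at the low end of both marker sums, and the 3 neg libraries lie at 0 to 29.0 for Met and at the low end of the biliary sum.

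Genes of the same pathways were taken from 6 lists with 124 genes, of which 83 were tested. In any of the 6 comparisons 14 of the 83 passed the threshold, where 6.04% of all tested genes did. The lists were chosen with earlier results of these data known, so these shares do not test for an excess. In sub against neg 2 pathway genes were called higher and 2 lower (1.04% and 0.149% of all tested genes), in low against neg 9 and 3 (2.55% and 2.15%), in high against neg 6 and 3 (2.44% and 2.25%), and in high against sub 1 and 1 (0.118% and 0.868%). In the main limma fit none was called in low against sub or high against low, where 9 and 6 of the 83 had an unadjusted p under 0.05. Without the variance trend limma called 2 in low against sub and 0 in high against low. On 10 libraries edgeR called 1 in each of these comparisons (Nrp1 in both), and DESeq2 called 6 and 3. Of the 27 calls, 9 held in every fit that left out 1 library: Hspg2 and Ext1 in all 3 comparisons with neg, Sdc4 in low and in high against neg, and Egr1 in high against neg. Of these 9, Hspg2, Sdc4 and Egr1 lost theirs without the variance trend, and Ext1 lost those of sub and low with only 2 populations compared, so that Ext1 in high against neg was the call that held in all 25 alternatives run.

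Among the HGF and MET genes (27 listed, 22 tested) 4 were called, all higher than in neg. St14 encodes matriptase, a membrane protease that can activate the HGF precursor. It had 0, 0 and 480.0 normalised counts in neg, 1932, 840.4 and 982.5 in sub, 1975, 3015 and 1276 in low, and for high 2207, 2291 and 1985. It was called in sub (7.82 times, adjusted p 0.0467), low (13.1 times, 0.0101) and high (13.5 times, 0.00890) against neg. These folds rest on neg replicate 3, without which neg was at 0 and they were at least 435.9-fold, 727.5-fold and 752.7-fold. Spint1, an inhibitor of matriptase and of the HGF activator, had no reads in neg and 450.3 to 711.0 normalised counts in low, a rise of at least 190.9-fold (adjusted p 0.0355). Its values of 178.9 to 419.8 in high were not called in the main fit, although all lay above neg, as for 10.2% of all tested genes. DESeq2 and limma without the variance trend called Spint1 higher in high than in neg, and DESeq2 also in sub. Ptprj, a phosphatase that acts on MET, averaged 142.7 in neg, 2121 in low and 2635 in high (14.9 and 18.5 times, adjusted p 0.0259 and 0.0181), and without neg replicate 3 the folds were 24.5 and 30.4. Itgb4, an integrin chain that can pair with MET, averaged 90.7 in neg, 1532 in low and 1779 in high (16.9 and 19.6 times, adjusted p 0.0120 and 0.00908). Its neg libraries had 270.8, 1.22 and 0, and without neg replicate 1 the folds were at least 466.6 and 541.9.

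All 8 HGF and MET calls of the main fit ended in at least 1 fit that left out a library. The St14 sub call ended in 11 of 12 (highest adjusted p 0.188, without sub replicate 1), and its low and high calls in 2 of 12 each (up to 0.0634 without low replicate 2 and 0.0552 without high replicate 3). The Spint1 call ended in 9 of 12 (up to 0.104, without low replicate 1). Ptprj lost its low call in 4 of 12 (up to 0.0955, without low replicate 1) and its high call in 3 of 12 (up to 0.0895, without high replicate 3). Itgb4 lost each call in 2 of 12 (up to 0.0689 without low replicate 3 and 0.0606 without high replicate 3). Over all 25 alternatives, St14 lost its sub, low and high calls in 20, 7 and 7 (adjusted p up to 0.652, 0.307 and 0.257), Spint1 its call in 13 (up to 0.104), Ptprj in 9 and 8 (up to 0.360 and 0.275) and Itgb4 in 6 and 6 (up to 0.266 and 0.192). The median log2 fold change of the 22 tested genes was 1.06 in sub, 2.40 in low and 2.16 in high against neg, beside 0, 0 and 0.13 over all tested genes. Of the other abundant genes, the MET ubiquitin ligase gene Cbl had 1242 to 1768 normalised counts in neg, 1240 to 2158 in sub, 828.5 to 2433 in low, and for high 1503 to 1659. Ptpn11, which encodes the phosphatase SHP2, spread from 582.0 to 2727 within low alone and had 728.9 to 2997 in the other populations. Plxnb1, a plexin that pairs with MET, had 0 to 758.2 in neg, 265.6 to 2413 in sub, 1415 to 4012 in low, and for high 1964 to 3787, and none of these 3 was called. Mst1 and Mst1r, the ligand and receptor pair most like HGF and MET, were at 0 in all 12 libraries.

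FGF ligand genes were little read. Of 22 listed genes, 11 were at 0 in all 12 libraries and 6 were tested. None was called in any comparison by the main limma fit (unadjusted p under 0.05 for 0 to 2 of the 6) or by edgeR. Their median log2 fold change was -2.80 in low and -1.77 in high against neg, or -2.80 and -2.07 when each gene under the 3-read floor took its bounding value. The most read were Fgf1, Fgf2, Fgf11 and Fgf12. Fgf2, a heparin-binding FGF made by stromal and endothelial cells, had 178.3, 396.2 and 357.4 normalised counts in neg, 0, 0 and 188.5 in sub and 0 in all low and high libraries. Its mean was at least 128.7-fold lower in low and at least 115.4-fold lower in high than in neg. These differences did not pass the test in the main limma fit or in edgeR. Fgf2 was called lower than in neg in both populations in DESeq2, in limma on 10 libraries and without the variance trend. Fgf1 reached 804.5 in neg and 744.1 in sub in single libraries and at most 140.5 elsewhere. Fgf11 reached 813.6 in sub replicate 1 and was at most 76.0 in the other 11 libraries. Fgf12 had no reads in neg, 237.3, 0 and 0.997 normalised counts in sub, 204.8, 0 and 0 in low, and for high 144.5, 302.2 and 44.9. Fgf21, the liver hormone that signals through FGFR1 with beta-Klotho, was among the genes at 0 throughout.

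Co-receptors and FGF-binding proteins (22 listed, 15 tested) moved in both directions. Hspg2 encodes perlecan, a matrix heparan sulphate proteoglycan, and fell from 23993 ± 2986 normalised counts in neg to 6791 ± 3016 (sub), 6308 ± 1104 (low) and 6715 ± 562.4 (high; all SD, n = 3). It was 3.53, 3.80 and 3.57 times lower, with adjusted p 0.000406, 0.000192 and 0.000329. Nrp1, neuropilin, fell from 7997 ± 710.5 in neg to 135.0 ± 117.3 in low and 54.7 ± 81.7 in high (adjusted p 0.0235 and 0.00775), with 2848 ± 586.1 in sub, not called. Sdc4, the syndecan of epithelial and endothelial surfaces, rose from 1344 ± 607.1 in neg to 7050 ± 275.9 in low and 7581 ± 1092 in high (5.25 and 5.64 times, adjusted p 0.000536 and 0.000329). Its sub level of 3195 ± 673.5 lay between without overlapping either. Sdc3, another syndecan, was at 0 in all high libraries after 630.3 ± 158.5 in neg and 1593 ± 1002 in sub, at least 234.1-fold and at least 591.5-fold lower (adjusted p 0.0203 and 0.0306). Sdc1 had 0 to 512.4 in neg, 1027 to 1900 in sub, 392.9 to 608.3 in low, and for high 23.2 to 324.5, and was not called. Klb, which encodes beta-Klotho, was at 0 in all 12 libraries.

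Of these, the Nrp1 low call ended in 4 of the 12 fits that left out 1 library (up to 0.0906, without low replicate 2) and its high call in 1 (0.0534, without high replicate 3). Sdc3 lost its call against neg in 6 of 12 (up to 0.0668, without neg replicate 3) and against sub in 9 of 12 (up to 0.121, without sub replicate 3), and its fold against sub was at least 377.7 without sub replicate 3. Over all 25 alternatives, Hspg2 lost its sub, low and high calls in 2, 1 and 1 (adjusted p up to 0.579, 0.343 and 0.363), Sdc4 its calls in 2 each (up to 0.192 and 0.172), Nrp1 in 9 and 3 (up to 0.223 and 0.0872) and Sdc3 in 10 and 13 (up to 0.0844 and 0.172). The median log2 fold change of the 15 genes was 1.35 in sub, 0.33 in low and 0.39 in high against neg, beside 0, 0 and 0.13 over all tested genes. Against sub it was -1.17 in low and -2.97 in high, beside 0 and 0.20. Nrp1 and Hspg2 are known to be made by endothelial cells. The endothelial marker sum was 3.16 times lower in sub, 86.4 times lower in low and 167.5 times lower in high than in neg. Nrp1 fell further from sub (2848) to low (135.0) and high (54.7), whereas Hspg2 stayed level over sub (6791), low (6308) and high (6715). The part of those cells was not tested.

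Adaptors and feedback genes downstream of FGF receptors (20 listed, 19 tested) gave 3 called genes. Egr1, an immediate early transcription factor induced by ERK signalling, rose from 29520 ± 2925 normalised counts in neg to 40332 ± 6585 in low and 51523 ± 5881 in high (1.37 and 1.75 times, adjusted p 0.0217 and 9.71e-05), and was 1.44 times higher in high than in sub (adjusted p 0.0249). Dusp5, a nuclear ERK phosphatase, rose from 573.7 ± 68.4 in neg to 3675 ± 135.4 in low (6.41 times, adjusted p 0.0231), with 2022 ± 527.9 in high, not called. Plcg1, the phospholipase that binds activated FGF receptors, fell from 4276 ± 365.3 in neg to 695.7 ± 748.4 in low (6.15 times lower, or 16.1 times without low replicate 3, adjusted p 0.0164), with 753.6 ± 348.7 in high, not called. Dusp4, another ERK phosphatase, overlapped between all 4 populations, with 140.8 to 2832 over the 12 libraries. The median log2 fold change over the 19 genes was 0.83 in sub, 1.87 in low and 2.21 in high against neg, beside 0, 0 and 0.13 over all tested genes. The Egr1 low call ended without low replicate 3 (0.146) or neg replicate 1 (0.109), its call against sub in 5 of 12 such fits (up to 0.160, without high replicate 3), and those of Dusp5 and Plcg1 in 4 of 12 each (up to 0.0784 without low replicate 3 and 0.0704 without low replicate 2). Over all 25 alternatives, Egr1 lost its low call in 10, its high call in 4 and its call against sub in 12 (adjusted p up to 0.880, 0.707 and 0.902, each without the variance trend), Dusp5 its call in 5 (up to 0.200) and Plcg1 in 8 (up to 0.178).

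Enzymes that build and modify heparan sulphate (22 listed, 15 tested) gave 3 called genes. Ext1, which polymerises the chain, had no reads in the 3 neg libraries and 1272, 1532 and 360.1 normalised counts in sub, 452.7, 1075 and 885.2 in low and 1661, 1351 and 2064 in high. It was at least 366.2-fold, 279.3-fold and 587.5-fold higher, with adjusted p 0.000914, 0.000654 and 0.000187. Its partner Ext2 ran from 93.9 to 1043 over the 12 libraries, with all populations overlapping, and was not called. Hs3st1, which adds a late sulphate group, had no reads in neg and 1017, 1820 and 154.5 normalised counts in low, a rise of at least 346.2-fold (adjusted p 0.0130). It had 183.5, 292.0 and 239.4 in sub and 657.6, 17.2 and 392.0 in high. All lay above neg, as for 4.69% (sub) and 10.2% (high) of all tested genes, and neither difference was called in the main fit. The sub and high differences from neg were called in edgeR, in DESeq2 and in limma on 10 libraries or without the variance trend. Glce, the epimerase of the chain, was at 0 in all sub libraries and averaged 730.8 ± 580.1 in neg (at least 253.8-fold lower in sub, adjusted p 0.0420). The abundant Hs6st1 had 322.7 to 771.7 in neg and 732.1 to 1572 in the other 9 libraries. Ndst1 had 1150 to 1341 in neg and 761.0 to 5781 in the other 9 libraries, and neither was called. The median over the 15 genes was 0.13 in sub, 0.68 in low and 0.69 in high against neg. The Glce call ended in 11 of the 12 fits that left out 1 library (up to 0.140, without neg replicate 2) and the Hs3st1 call in 2 of 12 (up to 0.0678, without low replicate 2), where its fold was at least 203.4. Without neg replicate 2 the Glce fold was at least 167.3. Over all 25 alternatives, Glce lost its call in 18 (adjusted p up to 0.652), Hs3st1 in 3 (up to 0.102) and Ext1 its sub and low calls in 1 each (0.554 and 0.0631).

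**Figure D5:**
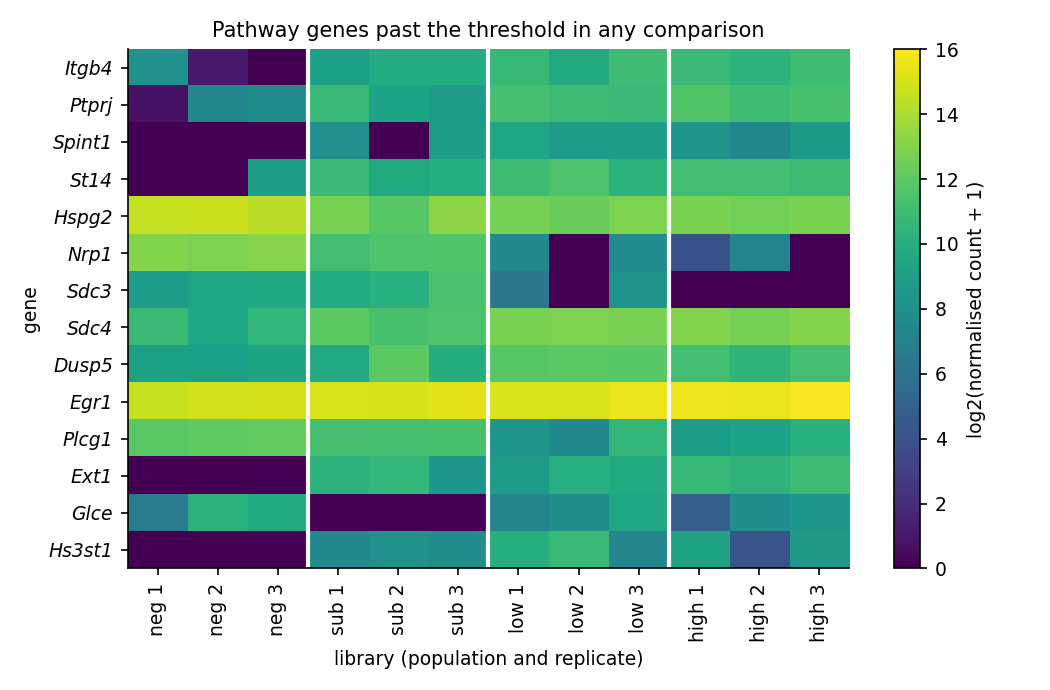
The 14 pathway genes past the threshold in any comparison (rows) in the 12 libraries (columns, white lines between populations), colored by log2(normalised count + 1). Ext1, Spint1 and Hs3st1 lie at 0 in all 3 neg libraries, and Sdc3 lies at 0 in all 3 high libraries.

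Bile acid genes downstream of FGFR4 (11 listed, 6 tested) gave no call in any comparison in limma (unadjusted p under 0.05 for 0 or 1 of the 6), edgeR or DESeq2. Their median log2 fold change was -0.28 in low and -1.07 in high against neg, or -0.38 and -1.07 when such genes took their bounding values. For the 4 lists with calls, the same step left the medians against neg as given. Cyp7a1, the rate-limiting enzyme of bile acid synthesis, and Cyp8b1 were at 0 in all 12 libraries. Nr0b2, which encodes the repressor SHP, was at 0 in all neg and sub libraries and at 304.3, 0 and 221.9 normalised counts in low and 64.9, 0 and 0.817 in high. Nr1h4, the bile acid receptor FXR, had 0 to 262.9 in neg, 159.2 to 587.3 in sub and 89.6 to 127.4 in low, and in high it was read in replicate 1 (402.4) alone. Slc10a2, the bile acid uptake carrier of cholangiocytes and gut, had 37.3, 600.5 and 25.1 in neg, 0, 1143 and 13.0 in sub, 271.6, 822.5 and 275.3 in low, and for high 763.2, 125.3 and 4.90. Cyp7b1 was read in neg replicate 2 (664.1) and sub replicate 3 (32.9) alone.

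The genes whose values ran most like each of the 6 were picked by Pearson's r of log2(normalised count + 1) over the 12 libraries, from 9614 genes with a mean of at least 100. The points share library and depth, and large differences between populations set much of each r, so these are descriptions. Hgf was most like Jam2 (r = 0.986), Clec1b (0.985) and AU021092 (0.983). Clec1b, a lectin of sinusoidal endothelium and Kupffer cells, was at 0 in low and high. Met was most like Pik3ap1 (0.987), Krt8 (0.985) and Sorbs2 (0.9754), and Krt8, an epithelial keratin, had 0 to 133.3 in neg, 15117 to 16648 in sub, 37197 to 45633 in low, and for high 43439 to 50992. Fgfr3 was most like Cxadr (0.986), an epithelial junction protein, Mafk (0.984) and Pigr (0.978), the receptor that carries IgA across epithelia. Fgfr1 was most like Pvr (0.970), Itga6 (0.963) and Cacul1 (0.958), and Fgfr2 was most like Msi2 (0.983), Lonrf3 (0.979) and Golph3 (0.977). Fgfr4 was most like Ly75 (0.991), Dnah7b (0.988) and Ofd1 (0.959), which averaged 0, 0.638 and 0 normalised counts in neg.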

How the data were processed

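The authors deposited normalised counts, a signal per gene symbol and library, in 1 table of 12 libraries. The submitters' processing notes name Salmon, DESeq2 1.26.0 and mm10. Annotation and use of strand are not given in the sources used here. Values were whole multiples (tolerance 0.01) of 1 step per library, the value of 1 read. Libraries were prepared with a stranded total RNA kit for low input after a DNase step of 30 min, per the labels' protocols.

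Genes with a mean of at least 10 were kept. Then log2(normalised count + 1) was taken, and a linear model on population alone was fitted over the 12 libraries with limma 3.58.1 in R 4.3.3, its empirical Bayes step following the variance trend. Tests were two-sided with Benjamini-Hochberg adjustment over 16128 genes at 0.05. This is the main fit. The pseudocount of 1 understates changes of low genes, while a single library at or near 0 can widen a log2 fold change beyond the ratio of means. Fgfr2 in low against neg had a log2 fold change of 4.61 beside a ratio of means of 3.77. Every adjusted p is from limma unless edgeR 4.0.16 or DESeq2 1.42.0 is named. These count tests ran on whole reads recovered in 10 libraries, leaving out sub replicate 3 and high replicate 2, where 1 read is worth close to 1. Folds are ratios of means, and a population with at most 3 reads in every library is set to 3 reads per library, which covers counting error only. Gene places and lengths are from GENCODE M21, and start windows from RefSeq. The scripts were tested on simulated data.

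The 6 genes and all lists were chosen with earlier results of these data known. Named genes are the 6, pathway genes called in any comparison, the 4 most read of each pathway list, and the 3 genes most like each of the 6. Marker lists of Kupffer cells (summed levels of 0 to 1526 over the libraries), lymphocytes (0 to 1108), granulocytes (0 to 399.9) and mesothelium (without Krt8, 536.7 to 3337) were also summed. Alternatives were pseudocounts, filters, scalings, the replicate block, 2 populations compared alone, the count tests and leaving out each library. After the data were seen, limma on 10 libraries and merged exon length were added.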

Additional observations from a re-analysis of the deposited data

How the results depend on the processing

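Of 870 repeats of the 6 genes' 35 fold changes, 804 kept direction and side of the threshold, 48 lost the call, 13 gained it and 5 turned sign. Of 675 repeats of the 27 pathway calls, 494 kept the call and 181 lost it, with no change of sign. The sign turned for Fgfr4 in high against low (edgeR -0.88, DESeq2 -0.88, and without low replicate 2 in a range of -1.55 to 3.33 over left-out libraries), Fgfr2 in sub against neg (without neg replicate 2, range -0.75 to 4.28) and Fgfr2 in high against low (without low replicate 2, range -0.34 to 0.058), none of them called. DESeq2 on 10 libraries called Fgfr4 in low and high against neg (adjusted p 0.000974 and 0.00735) and against sub (0.00543 and 0.0242), and Hgf in low and high against sub (2.69e-05 and 0.000354), as did limma without the variance trend for Hgf (0.00613 and 0.00546). Fgfr1 in low against neg was called with pseudocount 5 (0.0291), quantile normalisation (0.0396), edgeR (0.0105) and without neg replicate 1 (0.0211).

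In counts of called genes, high against low went from 0 to 1 without the filter, 22 without the trend and, on 10 libraries, 60 in limma, 58 in limma with TMM scaling, 74 in edgeR and 678 in DESeq2. In low against sub, 120 became 195 without the trend, 0 with 2 populations, 271 in edgeR and 1499 in DESeq2. In sub against neg, 192 became 0 with 2 populations and 1645 in DESeq2. In low against neg, 757 became 203 and 1875, and in high against neg 757 became 341 and 1845. In high against sub, 159 became 8 with 2 populations, 269 in edgeR and 1506 in DESeq2. Higher and lower calls there were 19 and 140 in the main fit and 43 and 226 in edgeR. They were 718 and 788 in DESeq2 and 73 and 76 in limma with TMM scaling. The 14 called pathway genes became 4 with 2 populations and, on 10 libraries, 8 in limma, 7 in limma with TMM scaling and 24 in DESeq2. Fits of 2 populations use 6 libraries. The cause of the other shifts was not tested. Leaving out 1 library gave 135 to 239 in sub against neg, 10 to 126 in low against sub, 0 to 4 in high against low, 445 to 763 in low against neg, 424 to 773 in high against neg, 46 to 176 in high against sub, 509 to 686 in the F test and 10 to 15 pathway genes.

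Libraries with the same number also share a name across the populations, which the labels do not explain. Their deviations from the population means correlated weakly (-0.016 to 0.027, mean 0.0088). Libraries with other numbers had -0.045 to 0.023 (mean -0.0044). Of the 12 libraries, 10 lay closest to their own number, a hint of a pairing that the main fit does not use. With the replicate block, 1 gene was called in high against low, 180 in sub against neg, 83 in low against sub, 720 in low against neg, 715 in high against neg and 130 in high against sub. It changed 1 pairwise call of the 6 genes, adding Fgfr1 in low against neg (adjusted p 0.0319), and the F test of Fgfr1 passed (0.0430).

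Each population has 3 libraries, and 38.8% to 49.6% of well-read genes were at 0 in another library of the same population.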
